A study of Mus musculus with 44 samples.

Results

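The 37 genes described here code for proteins of the muscle sarcomere and of the membranes that release and take back calcium. They were chosen by name for these roles, and all 37 were found among the 38202 genes of the deposited tables. Of these, 10 were assigned to the thin filament, 4 to the thick filament, 4 to titin and the M-band, 7 to the Z-disc, 6 to the triad and calcium release, and 6 to calcium uptake and storage. Their poly(A) RNA was measured by RNA-Seq in liver and skeletal muscle of 22 male mice, in 4 groups of 11 libraries named Liver WT, Liver KO, Muscle WT and Muscle KO. The KO mice carried a constitutive whole-body deletion in Slc16a13, made with CRISPR/Cas9, which took out its promoter and early exons and left later ones in place, and the WT mice were littermates on the same C57BL/6N background. All mice of both genotypes were 20 weeks old and had been fed high-fat diet (HFD) for 15 weeks. The labels do not name the muscle, and every mouse gave 1 liver and 1 muscle library.

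In a muscle fibre, an action potential reaches the voltage sensor of the transverse tubule, which opens the ryanodine receptor of the sarcoplasmic reticulum, and the released calcium binds troponin on the thin filament. Tropomyosin then moves on actin, myosin pulls, and a calcium pump returns the calcium to the reticulum, where calsequestrin binds it. Many of these proteins have a fast-fibre and a slow-fibre form encoded by separate genes, such as the pumps SERCA1 (Atp2a1) and SERCA2 (Atp2a2). Liver has no sarcomeres, but non-muscle tropomyosins and SERCA2 are used in most cell types.

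Slc16a13, the deleted gene, was examined first. In liver it had 99 to 302 reads in WT and 0 to 8 reads in KO libraries, a log2 fold change of -5.45 (adjusted p = 2.8e-11 by edgeR's quasi-likelihood test, Benjamini-Hochberg). In muscle it had 4 to 22 reads in WT and 11 to 40 reads in those labelled KO, with a log2 fold change of 0.64 (adjusted p = 0.49). The muscle count was not lower in those labelled KO, but the reads were few and counted per gene, with later exons left by the deletion. The label could thus not be checked in muscle, and these are called the muscle libraries labelled KO. Each library held 20150712 to 35218243 reads. The summed level of 10 hepatocyte markers was 106904 to 148373 CPM (counts scaled to the library total) in liver and 25.2 to 181 CPM in muscle. Among the 22 muscle libraries, WT 531, WT 624 and KO 611 stood apart by over 1000 CPM of Myh2, the myosin of fast oxidative fibres. Among the KO livers, 532, 602, 583 and 611 stood apart by fewer reads on long genes, with a slope of log2 level against log2 length of -0.54, -0.42, -0.25 and -0.079 against 0.039 or more in WT livers. KO liver 587, at 0.037, also lay below the lowest WT liver but by less than the margin of 0.1 used, and was kept.

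The 37 genes took 17.8 to 22.7% of all reads in WT muscle (median 20.8%) and 17.2 to 21.3% in the muscle libraries labelled KO (median 20.8%). The thin filament took the largest share of the 6 groups in WT muscle, with a median of 8.24%, followed by calcium uptake and storage with 5.61%. In RPKM, reads scaled to gene length and library size, which compares genes per length, the levels in WT muscle spanned from a median of 19985 for Acta1, the skeletal actin of the thin filament, to 3.49 for Sln, the peptide sarcolipin that regulates the calcium pump. Tnnt3, the fast troponin T, was next to Acta1 at 19659 RPKM, with 18552 to 22601 RPKM over the 11 WT mice for Acta1, so that these neighbours overlapped. Atp2a1 had 16429 RPKM, Mylpf, the fast regulatory light chain, had 15749 RPKM, and Tpm1, a tropomyosin, had 13498 RPKM. At the low end stood Atp2a2 with 11.0 RPKM, Tpm3 with 10.4 RPKM, Casq2 with 4.56 RPKM, Myom3 with 3.78 RPKM and Sln.

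The order depended in part on the gene length used. The length implied by count and RPKM was 3638 to 4396 bases for Neb in WT muscle, while the longest GENCODE vM21 transcript of this giant thin filament ruler has 22489 bases. With the longest transcript as length, Neb moved from place 12 to place 20 of the 37, Tpm1 from place 5 to place 8, and Myom1 from place 21 to place 18. The other 34 members moved by no more than 2 places. The length implied for Tpm1 also differed between tissues, at 1150 to 1165 bases in muscle and 1473 to 1572 bases in liver, so RPKM of Tpm1 is not a read count over 1 fixed length in both tissues.

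**Figure D1:**
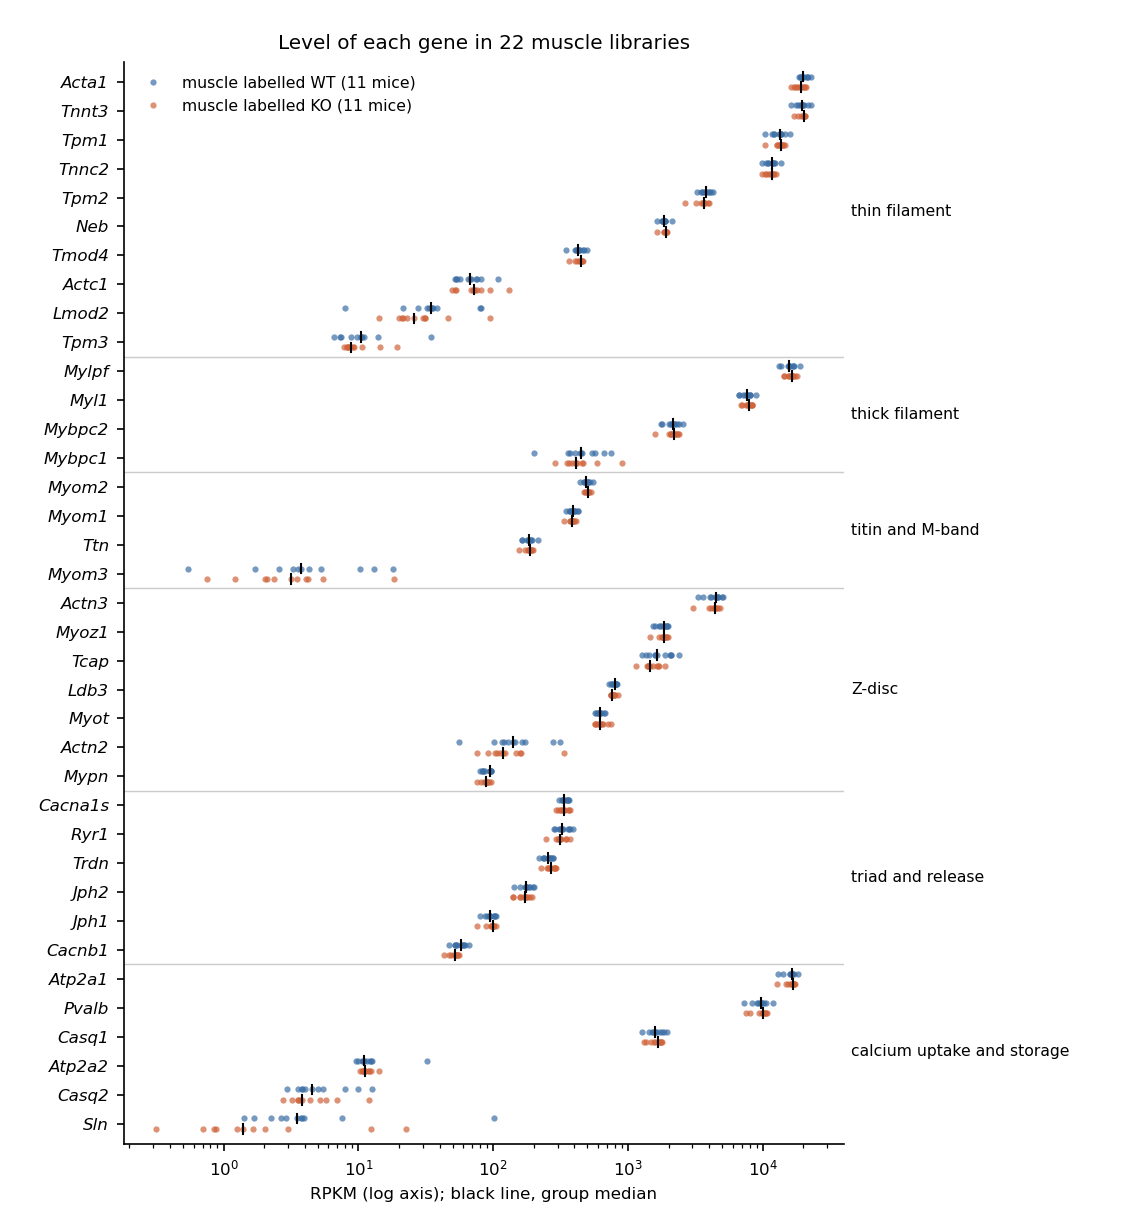
RPKM of the 37 genes (log axis) in 22 muscle libraries, ordered by role and by WT median. Each point is a mouse and each black line a group median, and the points of Lmod2, Myom3, Actn2, Casq2 and Sln spread far wider than those of Ttn or Ldb3.

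The paired isoforms differed strongly in level. Acta1 had 18552 to 22601 RPKM in WT muscle, and Actc1, the cardiac actin gene, had 51.7 to 108 RPKM. Atp2a1 had 12942 to 18197 RPKM and Atp2a2 9.62 to 32.4 RPKM. Casq1, the skeletal calsequestrin, had 1265 to 1942 RPKM and Casq2, the cardiac and slow-fibre calsequestrin, 2.96 to 12.6 RPKM. Tpm1 had 10442 to 15954 RPKM and Tpm3, the slow-fibre tropomyosin, 6.64 to 34.7 RPKM. In each of these pairs the lowest mouse of the fast or skeletal form lay above the highest mouse of the other. The Z-disc crosslinker Actn3 of fast fibres had 3295 to 5030 RPKM against 55.8 to 311 RPKM for Actn2, and the fast myosin binding protein Mybpc2 had 1756 to 2577 RPKM against 201 to 745 RPKM for the slow-type Mybpc1. The 2 junctophilins, which hold the tubule and the reticulum together, were closer, with 144 to 199 RPKM for Jph2 and 80.0 to 105 RPKM for Jph1, without overlap.

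None of the 37 genes passed the test between the muscle libraries labelled KO and WT. Of 13266 genes tested, 1 was called at an adjusted p of 0.05 (0.00754%), and 0 of the 37 members were among them in edgeR, DESeq2, limma-voom and each other setting tried. Of the 37, 2 had an unadjusted p under 0.05, against 8.64% of all genes tested. The ranges of CPM overlapped between the groups for each of the 37 genes, as they did for all genes tested (0% without overlap). The median log2 fold change over the members was -0.04, beside 0.01 over all genes tested, and 30 of 37 members had a lower mean in the libraries labelled KO, beside 46.3% of all genes. That count was 22 when scaled by library size alone, 21 with 1 surrogate variable and 19 without KO mouse 611. The 95% interval of the fold change lay within 0.5 of 0 on the log2 scale for 30 of the 37.

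By role, 8 of 10 thin filament genes, 2 of 4 thick filament genes, 4 of 4 genes of titin and the M-band, 6 of 7 Z-disc genes, 4 of 6 triad genes and 6 of 6 genes of calcium uptake and storage had a lower mean, with 0 called in each. The share over all genes tested was 46.3%. Without KO mouse 611 the log2 fold change was 0.009 for Ttn, 0.02 for Myom2, 0.004 for Atp2a1, 0.01 for Casq1 and 0.04 for Pvalb. The smallest unadjusted p belonged to Cacnb1, the beta subunit of the voltage sensor. Its level was 99.7 to 137 CPM in WT muscle (median 121) and 90.8 to 116 CPM in those labelled KO (median 109), with a log2 fold change of -0.16 (SE 0.06, unadjusted p = 0.016, adjusted p = 0.51 by edgeR). The groups overlapped, with the highest library labelled KO below the WT median. Tcap, which caps titin at the Z-disc, ranged from 1214 to 2278 CPM in WT muscle (median 1544) and from 1085 to 1797 CPM in those labelled KO (median 1377), with a log2 fold change of -0.23 (SE 0.11, unadjusted p = 0.046, adjusted p = 0.57). Acta1 ranged from 26587 to 32389 CPM in WT muscle (median 28639) and from 23325 to 29984 CPM in the libraries labelled KO (median 27449). Its log2 fold change was -0.12 (SE 0.07, adjusted p = 0.62), and the ranges overlapped over most of their width.

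The other members with the 10 smallest p-values were Sln, Atp2a2, Ldb3, Jph2, Myom3, Trdn and Ryr1. Ldb3, a Z-disc adaptor, had 1815 to 2077 CPM in WT muscle (median 2029) and 1871 to 2123 CPM in those labelled KO (median 1944), with a log2 fold change of -0.05. Trdn, which links calsequestrin to the release channel, had 981 to 1262 CPM (median 1160) and 1029 to 1329 CPM (median 1205), a log2 fold change of 0.06. The release channel itself, Ryr1, had 4307 to 5969 CPM (median 4951) and 3797 to 5691 CPM (median 4816), a log2 fold change of -0.09. Jph2 had 605 to 837 CPM (median 735) and 588 to 812 CPM (median 729), a log2 fold change of -0.09. For these 4 genes the adjusted p was 0.74 to 0.76 and the groups overlapped.

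Sln varied most of the 37 among WT muscles, with an SD of 1.62 on the log2 CPM scale. In WT muscle it had 52.6 CPM in mouse 616 and 0.73 to 3.90 CPM in the other 10 (median of all 11, 1.80). In the libraries labelled KO it had 11.7 CPM in mouse 532, 6.36 CPM in mouse 611 and 0.16 to 1.55 CPM in the rest (median 0.71). The log2 fold change was -1.56 (SE 0.81, adjusted p = 0.61), and it was 0.30 without WT mouse 616 and -2.30 without KO mouse 532. A single mouse therefore set its sign. Atp2a2 had 141 CPM in WT mouse 531 and 42.04 to 55.04 CPM in the other 10 WT mice, against 44.4 to 62.2 CPM in the libraries labelled KO. Its log2 fold change was -0.20 (SE 0.15, adjusted p = 0.73) and 0.02 without WT mouse 531. Myom3, a myomesin of the M-band, ranged from 2.36 to 76.4 CPM in WT muscle (median 15.2) and from 2.92 to 73.7 CPM in those labelled KO (median 11.8), with a log2 fold change of -0.57 (SE 0.49, adjusted p = 0.76) that was -1.12 without KO mouse 611 and -0.25 without WT mouse 531.

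**Figure D2:**
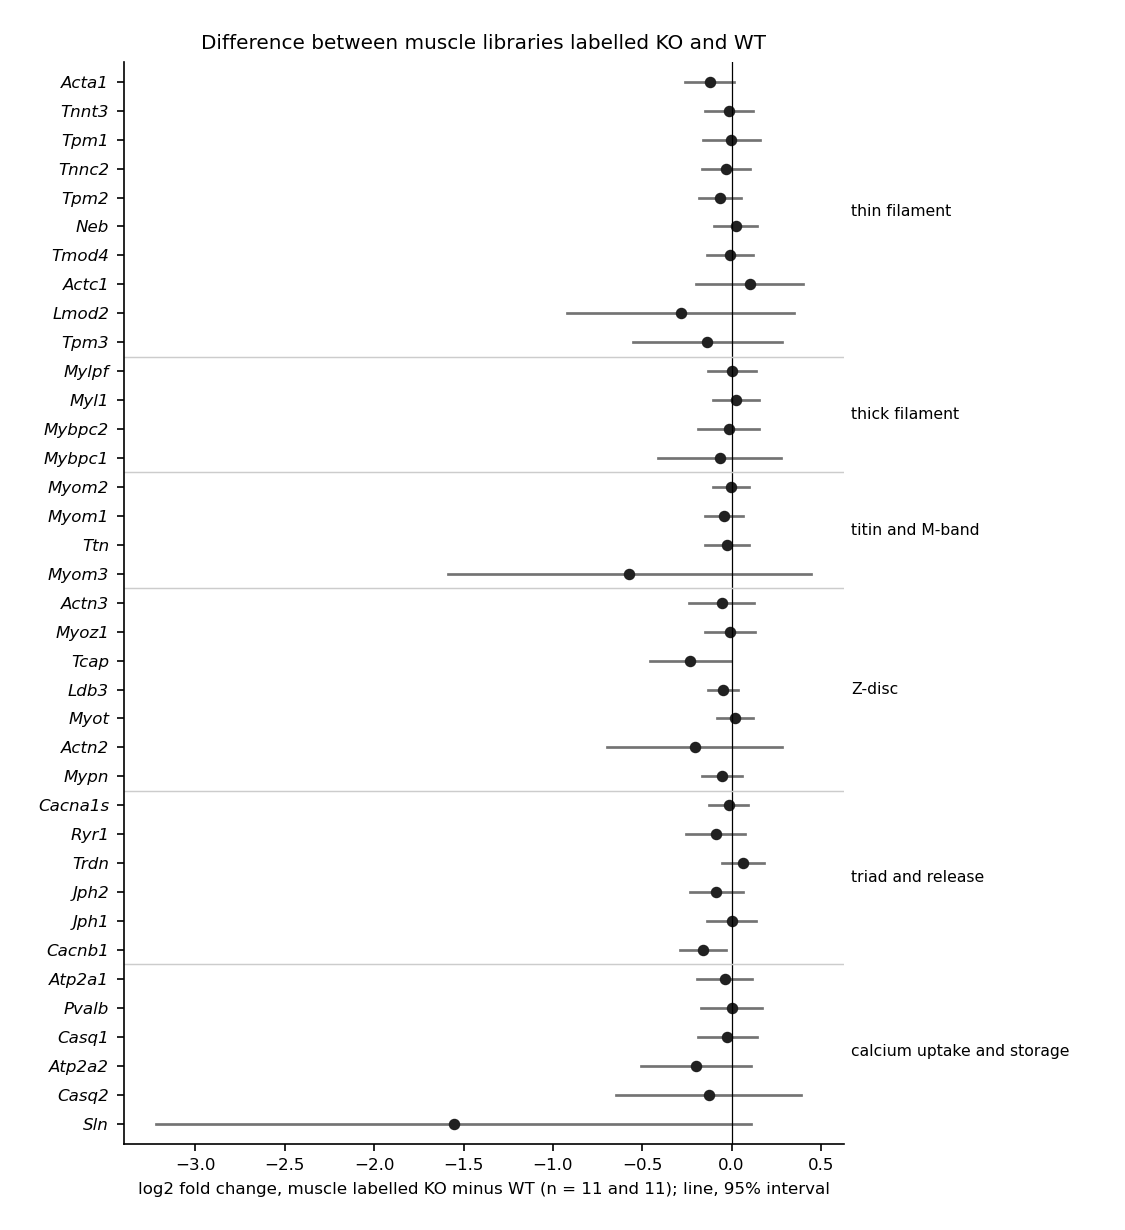
Log2 fold change of each gene between muscle libraries labelled KO and WT, with its 95% interval (11 against 11 mice). The intervals of Tcap and Cacnb1 end just below 0, that of Sln runs from -3.22 to 0.11, and 30 of 37 intervals lie within 0.5 of 0.

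A pair of lists of related genes were counted beside the members. Of 40 other contractile and sarcomere-associated genes, 38 were tested, 0 were called, 10 had an unadjusted p under 0.05 (8.64% of all genes) and 36 had a lower mean in the libraries labelled KO (46.3% of all genes). Without WT mouse 531 these counts were 3 and 33. Their 3 smallest p-values belonged to Myh7, the slow myosin (log2 fold change -3.60, adjusted p = 0.49), Tnnc1, the slow troponin C (-1.89, adjusted p = 0.51), and Pdlim3 (-0.16, adjusted p = 0.51). Myh7 had 77.8 CPM in WT mouse 531 and at most 2.25 CPM in the other muscles, and Tnnc1 had 414 reads in that mouse and at most 56 in any other. Without WT mouse 531 the log2 fold change was -0.30 for Myh7, -0.27 for Tnnc1 and -0.14 for Pdlim3. Of 28 other genes of excitation-contraction coupling, 0 were called, 19 had a lower mean (46.3% of all genes) and 3 had an unadjusted p under 0.05 (8.64% of all genes). These 3 were the calcium entry channel Orai1 (-0.16), the triad protein Jsrp1 (-0.26) and the membrane repair protein Dysf (-0.11). Without KO mouse 611, 13 of the 28 had a lower mean (46% of all genes) and 5 had an unadjusted p under 0.05 (9.75% of all genes). Of 8 adipocyte markers all had a higher mean in the muscle libraries labelled KO (median log2 fold change 0.35, 0 called). Their summed level was 943 to 1752 CPM in WT muscle (median 1141) and 931 to 3954 CPM in the libraries labelled KO (median 1197), highest in mouse 561. Of 5 macrophage markers all had a higher mean (median 0.25, 0 called), with summed levels of 36.99 to 113 CPM (median 80.4) and 49.3 to 177 CPM (median 93.1). Of all genes tested, 46.3% had a lower mean. In such bulk samples fewer fibres of a type and less RNA per fibre cannot be told apart, and the part of these markers in the fold changes was not tested.

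The spread among mice was uneven across the 37 genes. The median SD of log2 CPM among WT muscles was 0.17 over the members and 0.16 over all genes tested. After Sln, the widest were Myom3 (SD 1.39), Lmod2 (0.88), Actn2 (0.65) and Casq2 (0.64), followed by Tpm3 with 0.55. Myot, a Z-disc protein, was narrow among WT muscles, with an SD of 0.07, as were Tpm2 with 0.08 and Ldb3 with 0.10. In the libraries labelled KO the SD was 0.13 for Myot, 0.18 for Tpm2 and 0.07 for Ldb3, beside a median of 0.17 over the members.

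Of the 5 widest, Myom3, Lmod2, Actn2 and Casq2 followed Myh2 from mouse to mouse, while the slope of Sln on Myh2 did not pass the test (0.72 per doubling, adjusted p = 0.16). Lmod2, an actin filament nucleator, had 161 CPM in WT mouse 531, 156 CPM in WT mouse 624 and 185 CPM in KO mouse 611, against 15.6 to 75.6 CPM in the other 9 WT mice and 27.96 to 90.6 CPM in the other 10 labelled KO. The same 3 mice had 925, 823 and 991 CPM of Actn2, against at most 510 CPM in any other muscle. They had 23.9, 19.05 and 22.7 CPM of Casq2, against at most 14.9 CPM in any other muscle. At the other end, WT mouse 528 had 30.3 CPM of Myh2, the lowest of the 22, and also the lowest Lmod2, Myom3, Actn2, Casq2 and Mybpc1. WT mouse 531 also stood highest in Tpm3, with 44.01 CPM against 28.3 CPM in KO mouse 611 and at most 21.4 CPM in the rest.

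**Figure D3:**
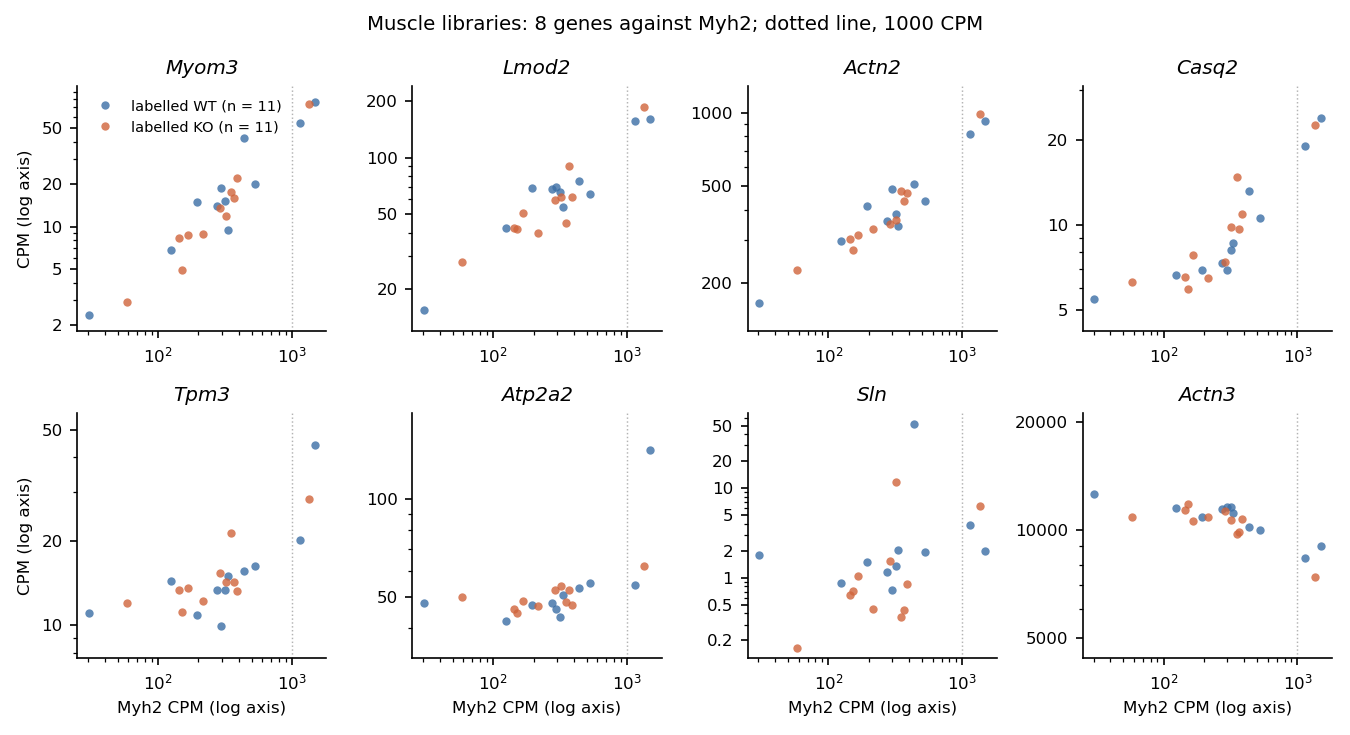
CPM of 8 genes against CPM of Myh2 in 22 muscles (both axes log). Myom3, Lmod2, Actn2 and Casq2 climb across the whole range of Myh2, Actn3 falls from 12577 to 7362 CPM, and Atp2a2 is flat except for 1 WT mouse at 141 CPM.

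Fitted across all genes with genotype in the model, a slope on log2 CPM of Myh2 was called for 29 of the 37 members, 7 rising and 22 falling. This fit was chosen after the values had been seen, and it called 14.5% of the 14187 genes tested (7.84% rising, 6.63% falling). Per doubling of Myh2, the rising members were Myom3 (0.93), Lmod2 (0.55), Actn2 (0.42), Casq2 (0.41), Tpm3 (0.28), Mybpc1 (0.27) and Atp2a2 (0.15), in log2 units. Falling members included Mybpc2 (-0.13), Actn3 (-0.13), the calcium buffer Pvalb (-0.11), Casq1 (-0.11), Tpm1 (-0.11) and Atp2a1 (-0.10). So in the pairs Actn2 and Actn3, Mybpc1 and Mybpc2, and Casq2 and Casq1 the slopes had opposite signs.

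Without the 3 muscles of over 1000 CPM of Myh2, 6 members were called, 5 rising and 1 falling, against 1.36% of genes tested (0.589% rising, 0.77% falling), and each of the 37 slopes kept its sign. Those called were Myom3 (0.91), Actn2 (0.35), Lmod2 (0.48), Casq2 (0.28), Mybpc1 (0.24) and Mybpc2 (-0.10). The slope of Atp2a2 was then 0.02 (adjusted p = 0.89) and that of Tpm3 0.11 (adjusted p = 0.28). With Myh2 in the model, 0 of 37 members were called between the muscle libraries labelled KO and WT, and Myom3 had a log2 fold change of -0.29. Among the other cell types, KO mouse 611 had the highest summed macrophage markers (177 CPM), fibroblast markers (960 CPM) and nerve and Schwann markers (63.5 CPM) of the 22 muscles, and their part in its values was not tested. It was also highest in erythroid (183 CPM), endothelial (319 CPM), smooth muscle and pericyte (519 CPM) and cardiac markers (5.88 CPM). Among the WT muscles, mouse 531 was highest in macrophage, fibroblast, nerve, erythroid and cardiac markers, and mouse 624 in endothelial, smooth muscle, adipocyte and hepatocyte markers.

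For the 4 members with the steepest called rise, the 200 bases before the transcription start are shown, taken from RefSeq on mouse assembly GRCm38.p6. Capitals mark a MEF2 box, the site of a family of muscle transcription factors, and each CANNTG, the E-box bound by myogenic factors such as MyoD. The sequences lie at chr4:135759515-135759714 on the plus strand for Myom3, chr6:24597571-24597770 on the plus strand for Lmod2, chr13:12340733-12340932 on the minus strand for Actn2, and chr3:102086215-102086414 on the plus strand for Casq2.
Myom3: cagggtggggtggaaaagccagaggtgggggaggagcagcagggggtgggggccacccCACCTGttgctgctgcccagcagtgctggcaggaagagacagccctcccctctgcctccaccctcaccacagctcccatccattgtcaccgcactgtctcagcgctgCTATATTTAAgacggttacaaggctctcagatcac
Lmod2: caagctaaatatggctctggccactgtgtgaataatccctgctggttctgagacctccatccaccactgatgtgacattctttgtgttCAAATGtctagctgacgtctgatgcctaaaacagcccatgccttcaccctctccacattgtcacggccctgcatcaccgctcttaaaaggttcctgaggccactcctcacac
Actn2: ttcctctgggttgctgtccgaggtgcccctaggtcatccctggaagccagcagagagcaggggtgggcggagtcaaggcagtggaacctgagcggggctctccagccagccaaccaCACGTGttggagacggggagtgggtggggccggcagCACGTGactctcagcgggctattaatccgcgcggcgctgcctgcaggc
Casq2: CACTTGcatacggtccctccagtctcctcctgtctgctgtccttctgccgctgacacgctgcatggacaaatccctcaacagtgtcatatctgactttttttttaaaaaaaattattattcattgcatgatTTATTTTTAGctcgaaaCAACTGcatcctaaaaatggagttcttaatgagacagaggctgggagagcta
In these stretches Myom3 and Casq2 hold a MEF2 box and Lmod2 and Actn2 do not, while each of the 4 holds an E-box.

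Promoter windows of 300 bases (250 before and 50 after the start) were given for 26 of the 37 members. Both strands were searched, and CAGCTG is a case of CANNTG. A MEF2 box stood in 4 of the 26 (15.4%), which were Ttn, Casq2, Myom3 and Pvalb, and in 3.70% of 27025 genes. A CArG box, the site of serum response factor, stood in 4 of the 26 (15.4%), which were Actc1, Acta1, Ldb3 and Myom1, and in 1.81% of all genes. CANNTG stood in 24 of the 26 (92.3%) and in 74.99% of all genes, CAGCTG in 42.3% and 18.3%, CATTCC in 26.9% and 16.6%, and TATAAA in 15.4% and 15.7%. The MEF2 box was found both in members that rose with Myh2 (Myom3, Casq2) and in members that fell (Ttn, Pvalb).

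Atp2a2 was set against 4 other genes across mice, within each genotype, as 8 relations in all. In WT muscle, Atp2a2 and Casq2 had Pearson's r = 0.75 (n = 11, permutation p = 0.0015, adjusted p = 0.012) and Spearman's rho = 0.71 (permutation p = 0.019, adjusted p = 0.056). Without mice 531 and 516, the 2 farthest from the median of Atp2a2, r was 0.58 (n = 9, permutation p = 0.10), no longer past the threshold. On the log2 RPKM scale r was 0.76, and 0.74 without mice 531 and 612, the 2 farthest on that scale (permutation p = 0.022). On the log2 CPM scale, Atp2a2 and Tpm3 had r = 0.90 in WT muscle (permutation p = 0.017, adjusted p = 0.067), rho = 0.70 (permutation p = 0.021, adjusted p = 0.056), and r = 0.53 without mice 531 and 516 (permutation p = 0.14). Atp2a2 and Myh7 had r = 0.84 (permutation p = 0.045, adjusted p = 0.12), rho = 0.35 (permutation p = 0.29, adjusted p = 0.33), and r = 0.01 without them (permutation p = 0.98). Atp2a2 and Atp2a1 had r = -0.47 in WT muscle (permutation p = 0.15, adjusted p = 0.15), rho = -0.58 (permutation p = 0.065, adjusted p = 0.13), and r = -0.61 without those 2 mice (permutation p = 0.085).

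In the muscle libraries labelled KO, r of Atp2a2 was 0.49 with Casq2, 0.51 with Tpm3, 0.50 with Myh7 and -0.54 with Atp2a1 (each n = 11, permutation p = 0.079 to 0.12, adjusted p = 0.14). Spearman's rho was 0.28, 0.39, 0.70 and -0.39 in the same order (adjusted permutation p = 0.056 to 0.40). Without mice 611 and 532, r was -0.13, -0.04, 0.24 and 0.10 (permutation p = 0.60 to 0.92). Whether r differed between the genotypes was not tested.

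WT muscle and WT liver differed in each of the 37 genes. Of 14739 genes tested, 88% were called between these tissues, 44.1% higher and 44% lower in muscle, and 50.1% had a lower mean in muscle. Of the 37 members 35 were higher and 2 lower. With the mouse as a block, 37 members were called as well. The CPM ranges of the 11 muscles and 11 livers did not overlap for 36 members, beside 69% of all genes, and Myom3 was the exception. The median log2 fold change of the members was 13.4, beside -0.00 over all genes, and 10.1 with DESeq2, beside 0.02. Without DESeq2's replacement of outlying counts its median over the members was 13.5.

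The 2 members lower in muscle were Atp2a2 and Tpm3. Atp2a2 had 224 to 395 CPM in WT liver (median 279) against 42.04 to 141 CPM in WT muscle, a log2 fold change of -2.43 (SE 0.18, adjusted p = 3.9e-17 by edgeR). Tpm3 had 44.4 to 56.5 CPM in WT liver against 9.91 to 44.01 CPM in muscle, a log2 fold change of -1.66 (SE 0.16, adjusted p = 3.2e-13). The lowest liver and the highest muscle, that of mouse 531, were thus separated by less than 1 CPM for Tpm3. Both genes stayed lower in muscle when scaled by library size alone (-2.38 and -1.61) or by DESeq2 (-2.41 and -1.63). Per length, Atp2a2 had 66.5 RPKM ± 13.7 (SD, n = 11) and Tpm3 31.9 RPKM ± 3.04 in WT liver, the highest of the members there. They were followed by Tpm1 with 15.5 RPKM ± 4.68, Tpm2 with 14.01 RPKM ± 3.38 and Neb with 3.79 RPKM ± 0.62. The next were Mylpf with 2.25 RPKM ± 1.80, Atp2a1 with 1.19 RPKM ± 1.65 and Tnnt3 with 1.19 RPKM ± 1.69, whose SDs were near or above their means.

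**Figure D4:**
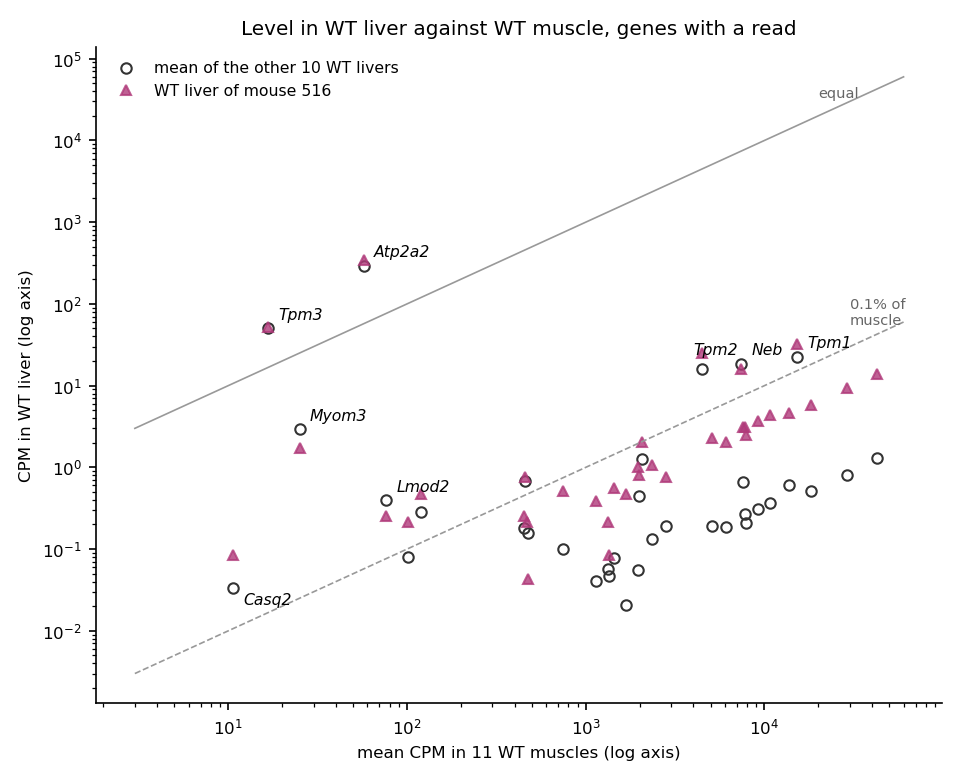
CPM of each gene in WT liver against its mean CPM in 11 WT muscles (both axes log), as the mean of 10 livers (circles) and in the liver of mouse 516 (triangles), for genes with a read. Atp2a2 and Tpm3 lie above the line of equal level, and of the 27 genes under the dashed line of 0.1% the triangles have a median of 0.0386% of the muscle level.

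Of the 37 members, 27 had a pooled level in WT liver under 0.1% of that in WT muscle, 7 lay between 0.1 and 1%, and 3 above 1%. Those above were Atp2a2 (519%), Tpm3 (307%) and Myom3 (11.3%). The 7 in between were Lmod2 (0.480%), Tpm2 (0.375%), Casq2 (0.334%), Cacnb1 (0.258%), Neb (0.245%), Tpm1 (0.156%) and Jph1 (0.148%). Sln had 0 reads in all 22 livers, while WT muscles held 17 to 1327 reads each. Against a floor of 3 reads over the 11 WT livers, its pooled level in WT muscle was at least 572-fold higher. Mouse 616 held 1327 of the 1808 reads of Sln in WT muscle, and without it the bound was 166-fold. The median log2 fold change of the members stayed at 13.4 with Sln at its bound. Casq2 rested on 10 reads in all 11 WT livers, so its share has little depth behind it.

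The reads of the 27 members under 0.1% were unevenly shared among livers. WT mouse 516 had 1497 of them, against 128 to 346 in the other 10 WT livers. KO mouse 532 had 709 and KO mouse 602 had 344, against 67 to 196 in the other 9 KO livers. Acta1 had 222 reads and Atp2a1 330 reads in the liver of mouse 516, against at most 40 and 68 reads in the other WT livers. Of the 37 members, 24 had their highest WT liver level in mouse 516, beside 9.74% of 21334 genes with a read, and 23 had their highest KO liver level in mouse 532, beside 23.8% of all genes with a read in KO liver.

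In mouse 516 the level of the 27 genes in liver was 0% to 0.210% of the WT muscle mean, with a median of 0.0386%. As a share of the pooled level in WT muscle, Acta1 (0.0327%), Tnnt3 (0.0318%), Tnnc2 (0.0313%), Myl1 (0.0338%), Ttn (0.0343%) and Atp2a1 (0.0329%) were near one another there, and so were 2 muscle genes outside the list, Myh4 (0.0360%) and Ckm (0.0348%). Other members of the 27 lay farther off. Among them were Myom1 (0.0989%, 48 reads), Actc1 (0.213%, 5 reads), Myot (0.0160%, 5 reads), Mypn (0.00901%, 1 read) and Mybpc1 (0.00622%, 2 reads). Without mouse 516 the share of Acta1 in WT liver was 0.00274% and that of Actn2 was 0%, since all 5 reads of Actn2 came from this mouse. At the low end, KO mouse 568 had 0 reads of 17 members and 0 reads of Myh4. Where these reads came from was not tested.

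**Figure D5:**
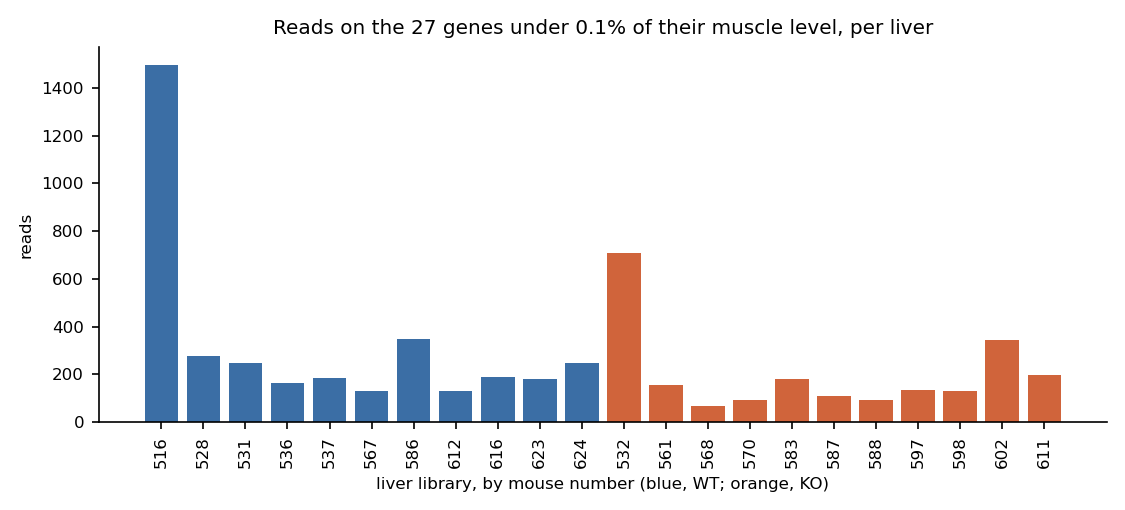
Reads on the 27 genes with under 0.1% of their muscle level, in each of 22 livers (blue WT, orange KO). WT mouse 516 stands at 1497 reads and KO mouse 532 at 709, and the others lie between 67 and 346.

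Between KO and WT liver none of the members passed the test. Of the 37, 13 passed the filter on low counts, and a gene can pass it through 1 group alone. Of 13005 genes tested, 0.0231% were called (0.0154% higher, 0.00769% lower) and 0 of the 13 members were among them. Of the 13, 2 had an unadjusted p under 0.05, against 12.9% of all genes tested. One was Tpm2, with 12.4 to 24.8 CPM in WT liver (median 15.9) and 14.4 to 43.2 CPM in KO liver (median 17.2), a log2 fold change of 0.44 (SE 0.20, adjusted p = 0.38 by edgeR). The other was Neb, with 13.4 to 22.6 CPM in WT liver (median 19.3) and 4.29 to 20.7 CPM in KO liver (median 14.8), a log2 fold change of -0.46 (SE 0.21, adjusted p = 0.38). The highest Tpm2 belonged to KO mouse 532 and the lowest Neb to KO mouse 602. Without the 4 KO livers of low slope on gene length, the log2 fold change was 0.03 for Tpm2 and -0.13 for Neb. Other members lay farther from 0 than before, with -2.81 for Acta1, -2.40 for Atp2a1, -1.55 for Ttn and -0.83 for Mylpf. The livers left out included KO 532 and KO 602, with 709 and 344 reads on the 27 members under 0.1%. WT 516, with 1497 of these reads, stayed in, and its part in these values was not tested. Of 16 members tested without these 4 livers, 6 had an unadjusted p under 0.05 (2.96% of all genes) and 0 were called, with an adjusted p of 0.999 for each. The 6 were Acta1, Atp2a1, Ttn, Mylpf and Tnnt3 (-2.26), which were lower in KO, and Cacnb1 (0.57), which was higher. Each of the 6 had its highest WT liver level in mouse 516, so those lower in KO are not separate observations. For Cacnb1, which was higher in KO, the level was 0.468 CPM in WT mouse 516 and 0.420 CPM in WT mouse 531.

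Atp2a2 in KO liver ran from 112 to 425 CPM (median 248), with the lowest in mouse 532, a log2 fold change of -0.15 (SE 0.18, adjusted p = 0.61). Tpm3 ran from 42.6 to 69.2 CPM (median 48.4), a log2 fold change of 0.05 (SE 0.07, adjusted p = 0.69). Acta1 (-1.22, SE 0.66) and Atp2a1 (-1.04, SE 0.62) had adjusted p-values of 0.38 and 0.40, and both had their highest levels in WT mouse 516 and KO mouse 532. Without WT mouse 516 they were -0.24 and -0.13, and without KO mouse 532 -1.85 and -1.55. Without the 4 livers with over 100 reads of Myh4, 0 members were called. The ranges of KO and WT overlapped for each of the 13, while 0.00769% of all genes tested had none. Of the 13 members, 10 had a lower mean in KO liver, beside 51.1% of all genes tested. Their median log2 fold change was -0.15, beside -0.01 over all genes tested, and it was 0.02 with gene length removed.

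The difference in KO minus WT between muscle and liver was fitted as an interaction, and 0 of the 37 members were called by edgeR, beside 0.00678% of 14739 genes. Since 24 of the 37 had too few liver reads to pass the filter in liver, the counts are given for the other 13. Of these 13, 2 had an unadjusted p under 0.05, against 16.2% of all genes, and 5 had a difference below 0, beside 46.2% of all genes. The 2 were Tpm2 (log2 difference -0.51, SE 0.21, adjusted p = 0.28 by edgeR) and Neb (0.48, SE 0.22, adjusted p = 0.29). In muscle alone the log2 fold change was -0.06 for Tpm2 and 0.02 for Neb. In liver alone it was 0.44 and -0.46, and 0.03 and -0.13 without the 4 KO livers of low slope on gene length. The smallest unadjusted p of the 37 belonged to Cacnb1, which is among the 24. Its log2 difference was -0.78 (SE 0.22, unadjusted p = 0.00085, adjusted p = 0.24 by edgeR), on 85 reads over the WT livers and 126 over the KO livers. With the mouse as a block, 0 of the 37 were called. DESeq2 called 7 members and 43 genes in all (0.292%, with 0.204% higher and 0.0882% lower). The members were Acta1, Tnnt3, Tnnc2, Ttn, Actn3, Atp2a1 and Pvalb. Its log2 differences for them were 10.1 to 10.6, where edgeR gave 0.76 to 1.07, and without DESeq2's replacement of outlying counts it called 0 members. No estimate is given for Sln, which had 0 reads in each liver.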

How the data were processed

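Liver and skeletal muscle of 22 mice gave 44 libraries, grouped by tissue and genotype from the labels, and the animal number links both tissues of a mouse. The authors deposited raw counts of reads per gene, which they did not normalize, and a table of RPKM values, which the authors scaled to gene length and library size. Libraries were made with a stranded poly(A) kit and read as single ends. The submitters' processing notes name limma, and the aligner, counter, genome build and annotation are not given in the sources used here. The length implied by both tables was not fixed for 45.8% of values with 20 or more reads (differing by over 1% from the gene's median), which can shift RPKM between genes. Symbols were matched for 36340 of 38202 rows.

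Counts were tested in R 4.3.3 with edgeR 4.0.16 (TMM, filterByExpr, quasi-likelihood test, Benjamini-Hochberg adjustment over all genes tested, threshold 0.05), using the 22 libraries of 1 tissue or all 44. CPM are counts scaled to the library total. The SDs and the main relations used log2 CPM scaled by TMM as well, with a prior count of 2. Relations used 100000 permutations, two-sided. Alternatives were DESeq2 1.42.0, limma-voom (limma 3.58.1), library size alone, no filter, gene length removed by a loess of span 0.3, 1 surrogate variable (sva 3.50.0), log2 RPKM with a pseudocount of 0.1 or 1, the mouse as a block, and each mouse left out. Fits with Myh2, without libraries high in Myh2 or Myh4, by the longest transcript, companion lists and the bound for Sln without single muscles, and DESeq2 without replacement of outlying counts were chosen after seeing the data. The pairing rests on the labels, where both tissues of 1 animal carry its number. Over the 22 mice, deviations of both tissues of a mouse correlated by -0.02 to 0.18 (mean 0.07). The procedures were tested on simulated data.

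Total counts were 20150712 to 35218243 per library, and the floor of 3 reads covers counting error only, while intervals of fold changes come from the spread among mice. In 220 pairs of libraries of the same group, 0 held identical counts, and the mean chi-square per gene was at least 4.47. The members and lists were chosen with earlier results of these data known. The genes named were those past the threshold, the 10 smallest p-values in muscle, 7 isoform pairs, the 5 widest SDs in WT muscle, the 8 highest RPKM in WT liver, the 3 smallest p-values of each companion list, and Slc16a13. Others that are named were chosen after their values were seen.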

Additional observations from a re-analysis of the deposited data

How the results depend on the processing

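For muscle and for liver, 0 members were called under each alternative, and between WT muscle and WT liver 37 were called under each. Leaving out each mouse in turn gave 0 to 0 members called in muscle and in liver, a median log2 fold change of the members of -0.05 to -0.00 in muscle and -0.24 to -0.13 in liver, and a log2 fold change of Slc16a13 of 0.56 to 0.76 in muscle and -5.61 to -5.30 in liver. Without calls, the sign of single members was not stable: 50 of 370 muscle values and 20 of 130 liver values under the other settings had the sign opposite to the value reported. For the interaction, DESeq2 called 7 members, and 0 once its replacement of outlying counts was off, which shows that this step made the calls. The mouse as a replicate block changed no call of a member (0 in the interaction and 37 between tissues). Of the slopes on Myh2, 29 were called over 22 muscles and 6 without the 3 highest in Myh2.

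With log2 RPKM, 4 relations of Atp2a2 passed the threshold that had not: with Casq2 in the libraries labelled KO (r = 0.73, permutation adjusted p = 0.023), with Tpm3 in WT muscle (r = 0.90, permutation adjusted p = 0.021), with Myh7 in WT muscle (r = 0.95, permutation adjusted p = 0.021) and with Atp2a1 in the libraries labelled KO (r = -0.79, permutation adjusted p = 0.021). Without the 2 farthest mice these 4 fell to r = 0.38, 0.39, 0.30 and -0.25 (permutation p = 0.30 to 0.54), and none passed by Spearman's rho (adjusted permutation p = 0.063 to 0.13). With gene length removed, the relation with Casq2 in WT muscle no longer passed (r = 0.67, permutation adjusted p = 0.15), and r changed sign in the libraries labelled KO with Casq2 (-0.31), Tpm3 (-0.34) and Atp2a1 (0.47). The cause was not tested. In liver, depth limits the 24 members that did not pass the filter.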
